A study of Mus musculus with 8 samples.

Results

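The SLC25 family is the mitochondrial carrier family, and its members in the mouse carry names that start with Slc25a. Probes whose deposited gene name starts with Slc25a were taken as the family, which gave 47 genes on 58 of the 55681 probes of the array. The family was set in 3 lists: 4 testis forms (Slc25a31, Slc25a54, Slc25a2 and Slc25a41), 23 widely expressed forms and 20 other forms. A gene was tested when both arrays of some group showed a probe of it well above background. Under that filter 46 of the 47 genes were tested, and Slc25a48 was left out as not well above background anywhere.

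Testes of C57BL/6 mice were profiled on 8 Agilent arrays of 1 colour (Cy3). The 4 groups were Ip6k1+/+ (wild type) and Ip6k1-/- (knockout) testes at 17 and at 26 dpp (days postpartum), littermates from heterozygous parents, with 2 arrays per group (n = 2). Ip6k1 encodes an inositol hexakisphosphate kinase, and which part of it the allele removes is not given in the sources used here. All groups were whole testes, so a difference can come from fewer cells of a type or from less RNA per cell, and these cannot be told apart. The labels call the replicates biological without naming the animals, so the p-values measure the spread between these arrays.

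Mitochondrial carriers move solutes across the inner mitochondrial membrane, among them adenine nucleotides, phosphate, carboxylates, amino acids and cofactors. Each carrier is built from repeats of a common membrane-spanning module, and many exchange 1 solute for another. Male germ cells use testis forms of several mitochondrial proteins. The adenine nucleotide carriers are a known case: the Slc25a5 gene lies on the X chromosome, which is silenced in spermatocytes, and the testis form Slc25a31 is autosomal and needed for meiosis. Between the ages sampled, the leading germ cells of the mouse testis pass from spermatocytes to spermatids.

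The probes of the adenine nucleotide carriers were compared with each other. No probe was compared with the transcript of a relative, so whether a probe also reads a relative was not tested. The probe of Slc25a31 lies at chr3:40528804-40528863 on the plus strand and that of Slc25a4 at chr8:47292828-47292887 on the minus strand (mm9). They are shown because the comparison of testis and widely expressed forms rests on them, and the longest run of bases they share is 4. The Slc25a5 probe (chrX:34338580-34338639) shares a run of at most 7 bases with either. The Slc25a37 probe printed with them, at chr14:69902797-69902856 on the minus strand, is the one of its gene's 2 probes that went against the other. Each of these sequences holds a reading frame without a stop codon; exon and intron are not assigned to any probe here.
Slc25a31: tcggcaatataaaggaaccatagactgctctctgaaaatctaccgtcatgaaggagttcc
Slc25a4: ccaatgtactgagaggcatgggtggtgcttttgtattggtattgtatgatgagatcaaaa
Slc25a37: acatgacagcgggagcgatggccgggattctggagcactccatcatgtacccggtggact

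Promoter windows of 300 bases (250 before to 50 after the start, RefSeq, GRCm38.p6) were found for 36 of the 47 genes, as 46 windows. Slc25a41 and Slc25a2 were not among them. The windows of the testis forms Slc25a31 (chr3:40708621-40708920, plus strand) and Slc25a54 (chr3:109080249-109080548, plus strand) are printed beside that of Slc25a4 (chr8:46211013-46211312, minus strand), because they stand for a testis form whose change with age did not pass, a testis form that rose and a widely expressed form that fell. Capitals mark matches, on either strand, to 3 motifs: the cAMP response element TGACGTCA, the E2F-type motif TCCCGC and the MYB-type motif AACNGCC.
Slc25a31: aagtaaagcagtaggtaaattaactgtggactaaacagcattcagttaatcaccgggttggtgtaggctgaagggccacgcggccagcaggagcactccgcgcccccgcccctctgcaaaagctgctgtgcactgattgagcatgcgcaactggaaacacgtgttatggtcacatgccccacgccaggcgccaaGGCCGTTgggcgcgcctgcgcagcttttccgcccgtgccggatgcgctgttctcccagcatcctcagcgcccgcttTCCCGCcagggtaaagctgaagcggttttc
Slc25a54: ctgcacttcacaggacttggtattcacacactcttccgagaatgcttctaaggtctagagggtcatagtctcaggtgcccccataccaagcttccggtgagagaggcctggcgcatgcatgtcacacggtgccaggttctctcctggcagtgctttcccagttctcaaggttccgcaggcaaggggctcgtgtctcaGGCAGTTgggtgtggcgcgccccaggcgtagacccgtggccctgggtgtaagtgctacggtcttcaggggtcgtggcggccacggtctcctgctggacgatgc
Slc25a4: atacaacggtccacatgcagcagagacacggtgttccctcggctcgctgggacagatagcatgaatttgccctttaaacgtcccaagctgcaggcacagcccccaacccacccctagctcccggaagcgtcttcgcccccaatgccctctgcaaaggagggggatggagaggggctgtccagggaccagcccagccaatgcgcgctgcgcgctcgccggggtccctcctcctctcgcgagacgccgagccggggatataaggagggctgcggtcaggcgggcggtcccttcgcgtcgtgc

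The MYB-type motif was found in both testis promoters, starting at base 195 of the window of Slc25a31 and at base 198 of that of Slc25a54. It was in 10.9% of the 46 family windows and in 12.1% of all 32851 windows of this length. The E2F-type motif, in 20% of all windows and 23.9% of the family's, was found in the window of Slc25a31 and also in that of the widely expressed Slc25a5 (chrX:36795347-36795646). The cAMP response element was in 1.79% of all windows and in the family only at Slc25a25 and Slc25a36. The window of Slc25a4 held no match to the 3 motifs. These matches describe letters, not binding sites.

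Levels are log2 ratios of a probe's processed signal to its array's 75th percentile, so 0 is the 75th percentile and 1 unit is a doubling. A probe's level says nothing of its rank against another probe. Between 58.8% and 64.6% of probes per array were well above background. Ip6k1 itself read 2.20 to 2.80 on the wild type arrays and 1.30 to 1.49 on the knockout arrays, with no overlap. Its differences of −0.82 at 17 dpp and −1.43 at 26 dpp did not pass (limma adjusted p = 0.518 at 26 dpp). Replicates correlated at 0.979 to 0.989 across genes, except in knockout at 26 dpp, where replicate 2 correlated at 0.86 with replicate 1, at 0.835 and 0.871 with wild type of its own age and at 0.917 to 0.947 with the arrays of 17 dpp. That array also stood apart in markers. Its summed level of 6 elongating spermatid markers, on a linear scale, was 0.406 against 401 to 1200 on the other arrays of 26 dpp, and that of 6 round spermatid markers was 1.57 against 77 to 112. Its 6 pachytene spermatocyte markers summed to 312, against 364 to 400 on the others and 15.3 to 74.7 at 17 dpp, but their median log2 level was 1.82, against 4.11 to 4.43 on the others and −3.19 to −1 at 17 dpp. Its 6 spermatogonia markers summed to 66.5, against 14.9 to 17 on the other arrays of 26 dpp and 57.9 to 85.1 at 17 dpp. Its 6 Sertoli cell markers summed to 93.6, against 41.7 to 48 on the others and 99.5 to 129 at 17 dpp. Their median log2 level went the other way, at 1.97 against 2.38 to 2.47 on the others and 3.39 to 3.86 at 17 dpp. Its 5 Leydig cell markers summed to 0.888, against 10.5 to 24 on all other arrays. Wild type at 17 dpp carried 6 of 6 epididymis markers above background, where every other array carried 1 or 2, and its replicate 2 read 216 for adipocyte markers against 1.04 to 26.6 elsewhere.

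In wild type testes, age moved the family in opposite directions. From 17 to 26 dpp, 24 of the 46 genes passed (limma adjusted p under 0.05), 7 of them higher and 17 lower. Over all 26584 genes 45.3% passed, 19.1% higher and 26.1% lower, so the family's share of 52.2% lay near the background. The median change of the family was −0.82, against −0.45 over all genes. For 12 members both arrays of 26 dpp lay above both of 17 dpp, as for 32.3% of all genes, and for 32 both lay below, as for 55.7%. Of the 4 testis forms 3 rose, and of the 23 widely expressed forms 3 rose and 10 fell. The 19 other forms tested gave 1 that rose and 7 that fell. Slc25a54 and Slc25a43 passed the filter only through arrays of 26 dpp, and Slc25a15 and Slc25a23 only through arrays of 17 dpp. The directions of these genes are therefore not independent of the filter. The lists were chosen with earlier results of these data known, so the contrast between them is a description and not a test. Epididymis markers also differed between these ages in wild type (median change −5.35), and their part in the changes of members was not tested. The counts of members rest on few arrays. Without 1 wild type array the count was 1 (17 dpp replicate 1), 1 (17 dpp replicate 2), 1 (26 dpp replicate 1) or 0 (26 dpp replicate 2, where 15 had an unadjusted p under 0.05 in limma). The shares of all genes were then 0.715%, 0.707%, 0.609% and 0%. The count was 10 without knockout replicate 1 or 2 at 17 dpp (26.2% of all genes) and 37 without knockout replicate 1 or 2 at 26 dpp (69.3% of all genes).

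**Figure D1:**
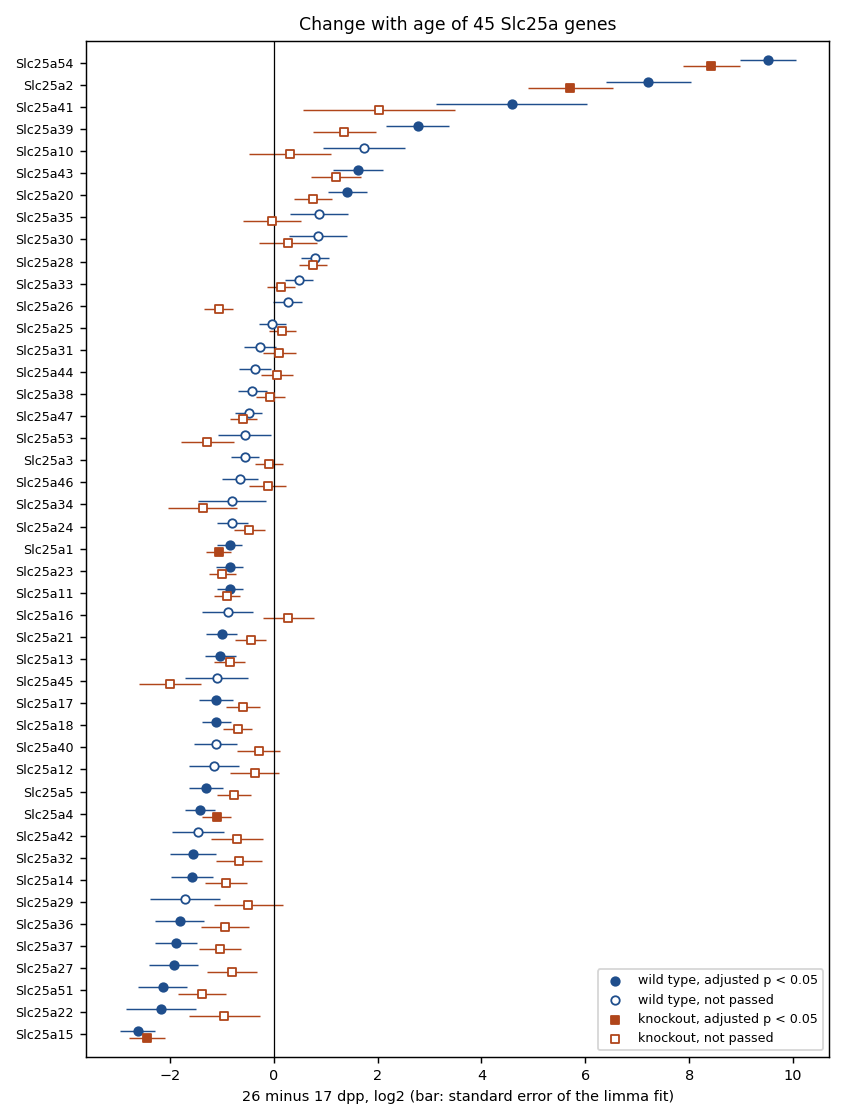
Change from 17 to 26 dpp on the log2 scale for 45 of the 46 tested Slc25a genes in wild type (circles) and knockout (squares), with the standard error of the limma fit as bars; filled symbols have an adjusted p under 0.05. Slc25a54, Slc25a2 and Slc25a41 lie farthest to the right. The points of Slc25a54, Slc25a15, Slc25a23 and Slc25a43 include an age at which the probe was not well above background, so the text gives bounds for them; Slc25a22, at −2.17 in wild type, lies to the left among the genes measured at both ages.

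Among the testis forms, Slc25a54, a relative of the carriers that exchange ATP-Mg for phosphate, went from below detection to a high level. On the wild type arrays it read −7.24 and −7.95 at 17 dpp and 1.88 and 1.94 at 26 dpp (chr3:108919410-108919469). On the knockout arrays it read −7.58 and −7.20 at 17 dpp and 1.80 and 0.28 at 26 dpp. The 4 arrays of 17 dpp did not read it well above background, and the 4 of 26 dpp did. The rise was at least 195-fold in wild type (limma adjusted p = 0.00275) and at least 93.7-fold in knockout (limma adjusted p = 0.00588). The bound was set against the lowest signal that counts as above background. Here and for every other gene given as a bound, the p-value comes from the signals as read and does not test the bound. Leaving out 1 array at a time, the adjusted p ran from 4.19e-05 to 0.0542 in wild type, the latter without wild type replicate 2 at 26 dpp. In knockout it was above the threshold only without knockout replicate 1 at 17 dpp, at 0.0836.

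Slc25a2, an ornithine carrier related to Slc25a15, followed the same course (chr18:37797331-37797390). It read −4.88 and −5.58 in wild type at 17 dpp and, at 26 dpp, 1.91 and 2.06. Knockout arrays read −5.49 and −5.02 at 17 dpp, and 1.77 and −0.85 at 26 dpp. The groups of the ages did not overlap in either genotype. The change was 7.21 in wild type (SE 0.82, limma adjusted p = 0.00649) and 5.71 in knockout (SE 0.82, limma adjusted p = 0.0187). At 17 dpp the levels lay near the floor, so the sizes of these changes are uncertain. The lowest signals well above background on those arrays were −5.74 to −5.47. Of the 2 knockout arrays of 17 dpp, 1 read Slc25a2 well above background. Knockout replicate 2 at 26 dpp lay between the ages for Slc25a2 and Slc25a54, nearer to 26 dpp in both.

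Slc25a41, a short ATP-Mg carrier, behaved differently on that array (chr17:57172299-57172358). Wild type read −3.29 and −3.70 at 17 dpp and 0.56 and 1.61 at 26 dpp, a change of 4.58 (SE 1.46, limma adjusted p = 0.0463) that did not pass without the filter on dim probes. Knockout read −3.04 and −3.58 at 17 dpp, and 1.16 and −3.71 at 26 dpp. Replicate 2 thus had the lowest level of all 8 arrays, while replicate 1 lay between the wild type arrays of its age. In knockout the change of 2.03 did not pass (SE 1.46, limma adjusted p = 0.342). It was 4.47 without replicate 2, where it passed, and −0.40 without replicate 1.

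Slc25a31, the testis carrier of ADP and ATP, did not share the rise. It read 2.30 and 2.11 in wild type at 17 dpp and, at 26 dpp, 1.80 and 2.07. On the knockout arrays it read 2.12 and 2.44, then 2.06 and 2.72. The change in wild type was −0.27 (95% interval −1.03 to 0.49, limma adjusted p = 0.482), and in knockout 0.11 (limma adjusted p = 0.801). The gene was already well above background on every array of 17 dpp, and knockout replicate 2 at 26 dpp had its highest level.

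**Figure D2:**
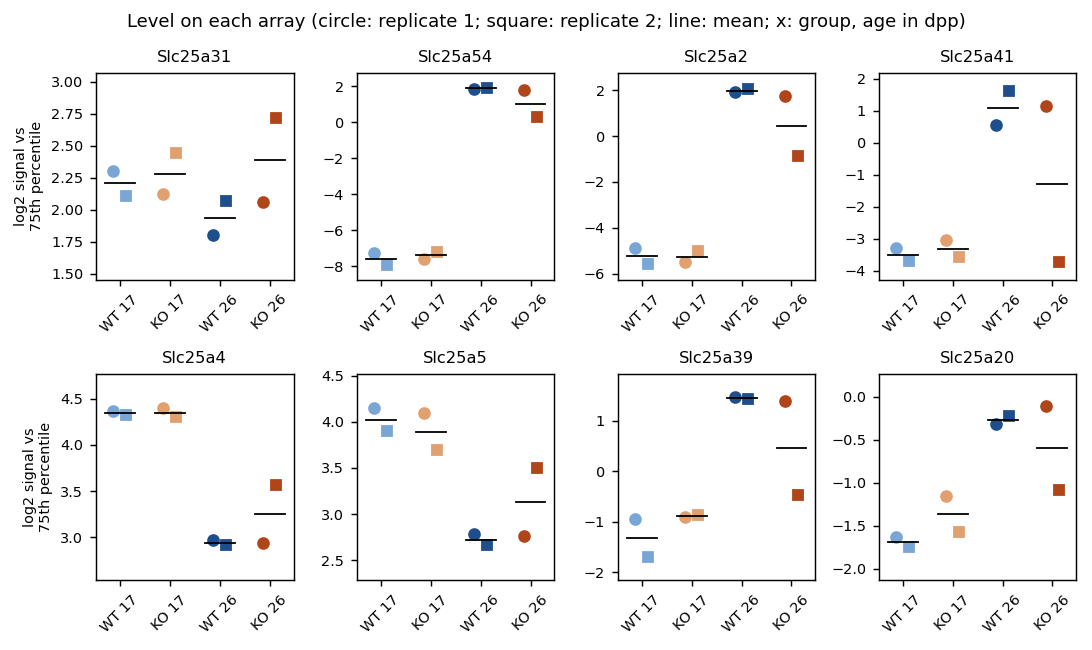
Log2 signal relative to the array's 75th percentile of 8 Slc25a genes on each array, by group and age in dpp, with replicate 1 as a circle, replicate 2 as a square and the group mean as a line; each panel has its own axis. Slc25a54, Slc25a2 and Slc25a41 are high at 26 dpp in wild type, and knockout replicate 2 at 26 dpp lies apart from replicate 1 in each panel.

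The widely expressed adenine nucleotide carriers fell, while the change of Slc25a31 did not pass. Slc25a4 encodes the carrier typical of heart and muscle. It read 4.37 and 4.33 in wild type at 17 dpp and, at 26 dpp, 2.97 and 2.91, a change of −1.42 (SE 0.28, limma adjusted p = 0.0154). Knockout read 4.40 and 4.30 at 17 dpp, and 2.94 and 3.57 at 26 dpp, a change of −1.10 (SE 0.28, limma adjusted p = 0.0485) that did not pass on the authors' deposited values. The X-linked Slc25a5, typical of dividing cells, read 4.15 and 3.90, then 2.78 and 2.66, in wild type. Its change there was −1.30 (SE 0.33, limma adjusted p = 0.0274). In knockout, at 4.10 and 3.69 and then 2.76 and 3.50, the change of −0.76 did not pass (limma adjusted p = 0.159).

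ATP-Mg carriers with calcium-binding domains are the relatives of Slc25a54 and Slc25a41. The probe of Slc25a54 lies 51796 bases from that of Slc25a24 on chromosome 3, and the probe of Slc25a41 lies 11508 bases from that of Slc25a23 on chromosome 17. Neither neighbour rose. Slc25a23 read −4.68 and −4.93 in wild type at 17 dpp and was not well above background at 26 dpp (−5.72 and −5.59), at least 1.54-fold lower (limma adjusted p = 0.0431), a call absent under normexp background correction. Slc25a24 read 0.93 and 1.01, then 0.21 and 0.13, a change of −0.80 that did not pass (SE 0.30, limma adjusted p = 0.0671). Slc25a25, the third of these relatives, read 1.27 and 1.17, then 1.32 and 1.05 (change −0.03, limma adjusted p = 0.925). On the knockout arrays Slc25a23 read −4.57 and −4.14, then −5.23 and −5.45. Slc25a24 read 0.98 and 0.45 there, then −0.01 and 0.49, and Slc25a25 read 1.28 on both, then 1.19 and 1.68.

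Amino acid carriers gave 1 gene that rose (Slc25a2) and 4 that fell among 9. Slc25a15, the ornithine carrier of the urea cycle, had wild type levels of −5.32 and −4.87 and knockout levels of −4.18 and −4.78 at 17 dpp. At 26 dpp none of the 4 arrays read it well above background (wild type −7.72 and −7.71, knockout −6.63 and −7.20). It was at least 1.26-fold lower in wild type (limma adjusted p = 0.00783) and at least 2.01-fold lower in knockout (limma adjusted p = 0.0185). These p-values come from the signals as read, which were dim at 26 dpp, and do not test the bounds. The call in wild type was absent under background correction by normexp with quantile normalization. The glutamate carriers Slc25a22 and Slc25a18 fell by 2.17 (SE 0.68, limma adjusted p = 0.045) and by 1.11 (SE 0.28, limma adjusted p = 0.0279) on the log2 scale, and the aspartate and glutamate carrier Slc25a13 by 1.03 (SE 0.30, limma adjusted p = 0.0389). Slc25a22 read −1.45 and −1.24 in wild type at 17 dpp and, at 26 dpp, −3.04 and −3.99. In knockout it read −1.47 and −2.05, then −3.70 and −1.73.

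Carriers of di- and tricarboxylates included no gene that rose. The citrate carrier Slc25a1 read 1.02 and 0.81 in wild type at 17 dpp and, at 26 dpp, 0.20 and −0.07 (change −0.85, SE 0.24, limma adjusted p = 0.0366). Knockout read 1.19 and 1.29, then 0.04 and 0.33, a change of −1.06 (limma adjusted p = 0.0399). It is 1 of the few members that passed in both genotypes. The oxoglutarate and malate carrier Slc25a11 and the oxodicarboxylate carrier Slc25a21 fell by 0.85 and 1.00 in wild type. Slc25a10, the dicarboxylate carrier, changed by 1.73 in wild type without passing (SE 0.79, limma adjusted p = 0.113).

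Cofactor and nucleotide carriers moved in both directions, with 2 that rose and 4 that fell among 11. Slc25a39, which carries glutathione, rose by 2.77 in wild type (SE 0.61, limma adjusted p = 0.0202). It read −0.95 and −1.69 at 17 dpp and 1.47 and 1.43 at 26 dpp. On the knockout arrays it read −0.91 and −0.87, then 1.39 and −0.47. Its relative Slc25a40 read −0.31 and −0.40 in wild type at 17 dpp and, at 26 dpp, −1.39 and −1.55, a change of −1.12 that did not pass (limma adjusted p = 0.0725).

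The largest fall among these carriers was that of Slc25a51, the carrier of NAD+. It read 2.03 and 1.98 in wild type at 17 dpp and, at 26 dpp, 0.12 and −0.40, a change of −2.14 (SE 0.47, limma adjusted p = 0.02). In knockout it read 1.96 and 1.93, then −0.12 and 1.26. The pyrimidine nucleotide carrier Slc25a36 changed by −1.81 (SE 0.47, limma adjusted p = 0.0286), from 1.06 and 0.67 to −0.85 and −1.03. The folate carrier Slc25a32 changed by −1.56 (SE 0.44, limma adjusted p = 0.0347), from 1.00 and 0.93 to −0.69 and −0.50. In knockout, Slc25a36 read 0.88 and 0.74, then −0.82 and 0.56, and Slc25a32 read 0.89 and 1.01, then −0.38 and 0.95. In both, knockout replicate 2 at 26 dpp was on the side of the arrays of 17 dpp. Slc25a17, a peroxisomal carrier of cofactors, fell by 1.11.

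The carnitine and acylcarnitine carrier Slc25a20, which brings fatty acids to oxidation, rose by 1.42 in wild type (SE 0.37, limma adjusted p = 0.0298). It read −1.63 and −1.75 at 17 dpp and −0.32 and −0.22 at 26 dpp. In knockout it read −1.15 and −1.57, then −0.11 and −1.09. The relatives of the uncoupling proteins took the other direction: Slc25a27 fell by 1.93 (SE 0.48, limma adjusted p = 0.0269) and Slc25a14 by 1.57 (SE 0.40, limma adjusted p = 0.0277), while Slc25a30 changed by 0.85 without passing. Slc25a27 read −0.73 and −0.57 in wild type, then −2.42 and −2.74, and in knockout −0.53 and −1.05, then −2.28 and −0.90.

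Of the iron carriers, Slc25a28 changed by 0.80 (limma adjusted p = 0.056) and Slc25a37 by −1.88 (SE 0.40, limma adjusted p = 0.0181). Slc25a37 had 2 probes that went in opposite directions. Its brighter probe, at chr14:69860020-69860079, read −0.33 and 0.08 in wild type at 17 dpp and, at 26 dpp, −2.12 and −1.90. In knockout it read −0.14 and −0.48, then −1.86 and −0.84. The other probe, whose sequence is printed above, read −4.43 and −3.34 in wild type, then −2.30 and 0.33, and in knockout −3.87 and −4.81, then −1.36 and −3.70. It changed by 2.90 in wild type, which did not pass when every probe was tested as a row (limma adjusted p = 0.0732). The mean of both probes gave 0.51 for the gene, so its direction depends on the probe. Of 10 genes with several kept probes, Slc25a25 was the only other with opposite signs (−0.03 and 0.26). One of the 2 probes named Slc25a5 lies on chromosome 14 and not on the X chromosome.

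The X-linked members were Slc25a5, Slc25a14, Slc25a43 and Slc25a53. In wild type 2 of the 4 fell and 1 rose, and their median change was −0.93, against −0.82 for the 42 autosomal members. Slc25a14 read 3.64 and 3.45 at 17 dpp and 2.14 and 1.82 at 26 dpp, and in knockout 3.68 and 3.36, then 2.06 and 3.13. Slc25a43, whose substrate is not known, was not well above background at 17 dpp (−6.17 and −6.29 in wild type) and read −4.50 and −4.70 at 26 dpp. It was at least 2.14-fold higher (limma adjusted p = 0.0379), and this call was absent under both settings with normexp background correction. Its knockout arrays read −7.18 and −6.19, then −4.93 and −6.04. Slc25a53 read −2.87 and −3.67 in wild type at 17 dpp and, at 26 dpp, −3.82 and −3.83, without passing (limma adjusted p = 0.38). Its knockout arrays read −3.34 and −2.58, then −3.65 and −4.83. The probe of Slc25a43 lies 46245 bases from that of Slc25a5, which fell.

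The 22 tested members that did not pass in wild type changed by −1.71 (Slc25a29, a carrier of basic amino acids) to 1.73 (Slc25a10). Those not described so far were spread over the substrate groups. Slc25a3, the phosphate carrier that supplies ATP synthase, read 4.32 and 4.20 in wild type at 17 dpp and, at 26 dpp, 3.71 and 3.68 (change −0.56, SE 0.27, limma adjusted p = 0.12). Its dimmer probe changed by −1.04, which passed when every probe was tested as a row (limma adjusted p = 0.0249). Slc25a3 also passed with the mean of its probes and under normexp with quantile normalization. Slc25a12, the aspartate and glutamate carrier of brain and muscle, changed by −1.15 (SE 0.48, limma adjusted p = 0.0897), close to the −1.03 of its relative Slc25a13, which passed. Slc25a42, a coenzyme A carrier, changed by −1.46 (SE 0.50, limma adjusted p = 0.0539) and the pyrimidine nucleotide carrier Slc25a33 by 0.48, its other probe lying 1.02 above that. Slc25a38 (glycine), Slc25a44 (branched-chain amino acids), Slc25a46 (an outer membrane protein), Slc25a47 and Slc25a35 changed by −0.41, −0.36, −0.65, −0.48 and 0.87. A change that did not pass with 2 arrays per group does not show that a gene kept its level.

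In knockout testes fewer members passed between the ages. Of 46, 2 rose (Slc25a54 and Slc25a2) and 3 fell (Slc25a15, Slc25a4 and Slc25a1), where 15.7% of all genes passed (7.61% higher and 8.13% lower). The median change was −0.48, against −0.31 over all genes. Both arrays of 26 dpp lay above both of 17 dpp for 6 members (22.5% of all genes) and below for 19 (37.9%). This count turned on 1 array. Without knockout replicate 2 at 26 dpp 30 members passed, 7 higher and 23 lower, and 59.8% of all genes; without replicate 1 it was 11, and 19.1% of all genes. Leaving out another array gave 0 (knockout 17 dpp replicate 1, where 8 had an unadjusted p under 0.05 in limma and 0% of all genes passed), 2 (knockout 17 dpp replicate 2, 4.52% of all genes) or 1 (each of the 4 wild type arrays, 0.188% to 0.308% of all genes). Wild type and knockout changes were not shown to differ: in the test of that difference no member had a limma adjusted p under 0.78.

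The heat map of single arrays shows where the knockout arrays of 26 dpp lay. Of the 24 members that passed in wild type, replicate 2 was nearer to the wild type mean of 17 dpp for 16 and replicate 1 for 1. Over the 12030 genes that passed in wild type, the shares were 54.2% and 1.43%. Over the 42 members well above background on all 4 arrays of 26 dpp, replicate 1 differed from the wild type mean of that age by at most 0.39 (Slc25a26, lower) and replicate 2 by up to 4.80 (Slc25a41, lower). For 18 of the 46 members replicate 2 lay outside the range of the other 7 arrays, below it for 10 and above it for 8, where 13.99% of all genes lay below and 15.04% above. That is not particular to this array: wild type replicate 2 at 26 dpp lay below the other 7 arrays for 18 members and above them for 6 (31.76% and 19.84% of all genes). Slc25a45 read −1.76, against −0.15 to 1.39 elsewhere, and Slc25a34 −2.37, against −1.41 to 0.14. Slc25a16, a carrier linked to coenzyme A, read −0.97, against −2.94 to −1.82. These members were picked after their values were seen. On knockout replicate 2 spermatid and Leydig cell markers were low, as given above. Spermatogonia markers lay above the other arrays of 26 dpp in sum, and Sertoli cell markers did so in sum but not by median. The part of these markers in these levels was not tested.

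**Figure D3:**
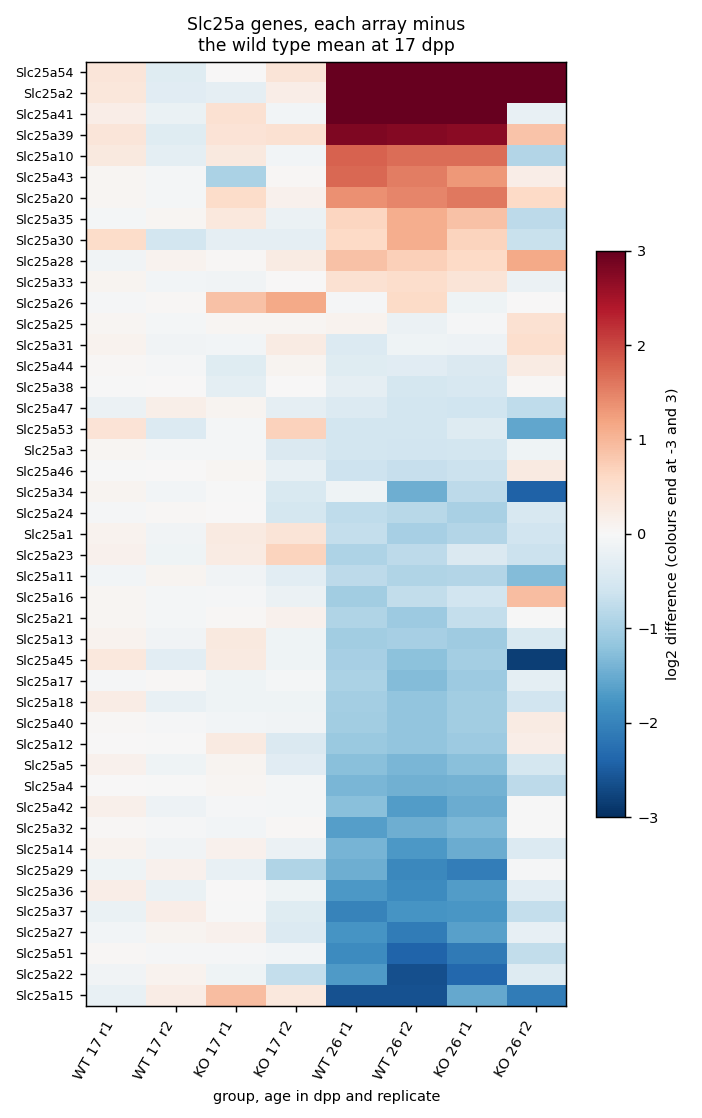
Each array minus the wild type mean at 17 dpp, log2, for 45 of the 46 tested genes, ordered by the change with age in wild type; red is higher and blue lower, and colours end at −3 and 3. Knockout replicate 2 at 26 dpp is paler than the other arrays of that age for most genes, with Slc25a45 and Slc25a34 darker blue than elsewhere.

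Knockout was set against wild type at each age, the comparison its genotypes imply. Ip6k1 itself passed at neither age, so a count of 0 does not show that members kept their level. At 17 dpp 0 of the 46 members passed in limma, where 0.102% of all genes passed, and 1 member had an unadjusted p under 0.05, against 1.45% of all genes. That member was Slc25a26, the carrier of S-adenosylmethionine. At 17 dpp its wild type arrays read 0.35 and 0.41 and its knockout arrays 1.27 and 1.51, a difference of 1.01 (SE 0.28, limma adjusted p = 1). At 26 dpp the wild type arrays read 0.35 and 0.96 and the knockout arrays 0.26 and 0.40. The knockout arrays thus lay above both wild type arrays at 17 dpp and overlapped with them at 26 dpp. The second probe of Slc25a26, on the same chromosome, differed at 17 dpp in the same direction but by less (0.54), and did not pass when every probe was tested as a row. With age in wild type the 2 probes changed in the same direction (0.63 against 0.27), and neither passed.

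After Slc25a26, the smallest p-values at 17 dpp belonged to Slc25a15 (0.62) and Slc25a23 (0.45), both with a limma adjusted p of 1. The median difference of the family was −0.05, against 0.02 over all genes, and the testis forms Slc25a31, Slc25a41 and Slc25a2 differed by −0.02 to 0.18, Slc25a2 being well above background on 1 of the 2 knockout arrays. Slc25a54 was not well above background in either genotype at this age. The epididymis markers, high on both wild type arrays of 17 dpp, differ between the same groups. The 5 adipocyte markers read lower in knockout at both ages without passing (median difference −4.59 at 17 dpp and −3.17 at 26 dpp). The part of either marker list in these differences was not tested.

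At 26 dpp 0 of 46 members passed in limma, where 0.00752% of all genes passed, and none had an unadjusted p under 0.05, where 2.46% of all genes had. The differences of the testis forms were −0.87 for Slc25a54, −1.52 for Slc25a2, −2.36 for Slc25a41 and 0.46 for Slc25a31 (SE 0.54, 0.82, 1.46 and 0.31; limma adjusted p = 0.533 each). For Slc25a54, Slc25a2 and Slc25a41 knockout replicate 2 lay below both wild type arrays, and without it Slc25a41 differed by 0.08. The smallest p-values belonged to Slc25a15, which was not well above background in either genotype and so has no difference to give, and to Slc25a16 and Slc25a21 (differences 1.07 and 0.64), with a limma adjusted p = 0.533 each. Slc25a16 read −1.82 and −1.96 in wild type, then −2.94 and −2.63, and in knockout −1.93 and −2.07, then −2.46 and −0.97. Slc25a21 read −1.34 and −1.46 in wild type, then −2.31 and −2.49, and in knockout −1.36 and −1.28, then −2.11 and −1.41. For both genes knockout replicate 2 at 26 dpp was above both wild type arrays of its age, and replicate 1 was too. Without replicate 1, which leaves replicate 2 as the knockout group, 28 members passed, and 45.4% of all genes; without replicate 2 the limma count was 0, and 1 member had an unadjusted p under 0.05. A fit with 1 array in a group assumes that the array varies like the other groups.

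**Figure D4:**
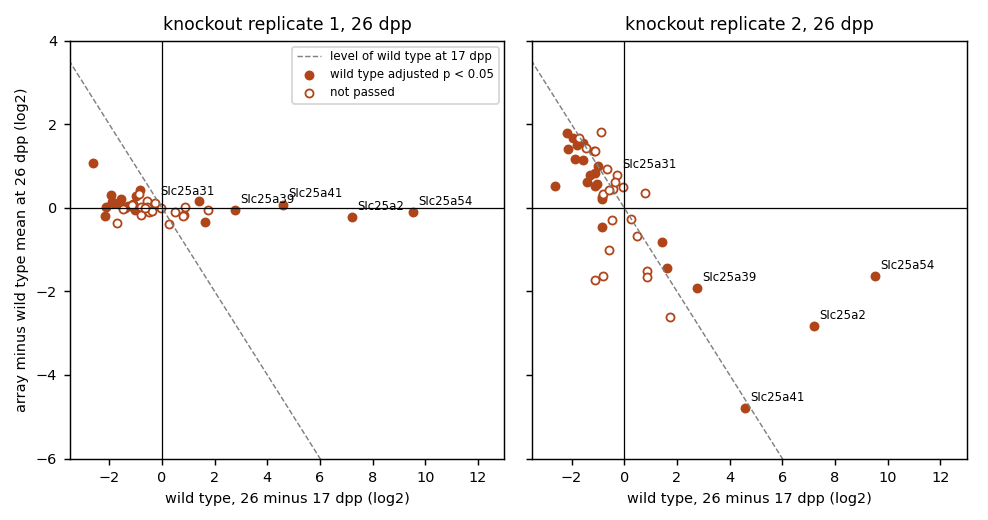
Knockout replicates 1 and 2 at 26 dpp, each minus the wild type mean at 26 dpp (vertical, log2), against the wild type change from 17 to 26 dpp (horizontal, log2), 1 point for each of 45 genes; the dashed line marks the wild type level of 17 dpp. Replicate 1 lies within 0.39 of 0 for the members well above background on all 4 arrays of 26 dpp, and many points of replicate 2 lie near the dashed line, with Slc25a54 and Slc25a2 well above it. Both axes share the wild type arrays of 26 dpp.

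Averaged over the ages, 0 members passed in limma, where 0.00752% of all genes passed, and 1 had an unadjusted p under 0.05, against 2.17% of all genes; without knockout replicate 1 at 26 dpp the count was 13, and 29.7% of all genes. In the test of whether the knockout effect differed between the ages, 0 members passed in limma and 0% of all genes, and 1 had an unadjusted p under 0.05, against 1.91% of all genes; without that replicate it was 22, and 32.7% of all genes. The lowest adjusted p in the latter was 0.78. Slc25a26 had the smallest p there, with a difference of −1.33.

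Other mitochondrial genes were measured beside the family. Testis forms of other mitochondrial proteins, Cyct (cytochrome c), Pdha2 (pyruvate dehydrogenase) and the cytochrome oxidase subunits Cox6b2, Cox7b2 and Cox8c, rose in wild type in 5 of 5 cases, with a median change of 2.80. Cox8c changed by 3.23 (SE 0.93, limma adjusted p = 0.0366) and Cyct by 2.07 (SE 0.51, limma adjusted p = 0.0263). Their widely expressed partners Cycs, Pdha1, Cox6b1, Cox7b and Cox8a fell in 5 of 5, with a median of −1.75. In knockout the change was above 0 for 5 of 5 testis forms, with a median of 2.39 and an unadjusted p under 0.05 in limma for each. Of these 1 passed, Pdha2 at 2.48 (limma adjusted p = 0.0491). The others lay just above the threshold, with a limma adjusted p of 0.0501 (Cyct), 0.0515 (Cox6b2), 0.0517 (Cox7b2) and 0.0554 (Cox8c). The change of the partners in knockout was below 0 for 5 of 5, and 0 passed in limma (smallest adjusted p = 0.101). In the pair of Slc25a4 and Slc25a31 the widely expressed gene fell too, and the change of the testis form did not pass.

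**Figure D5:**
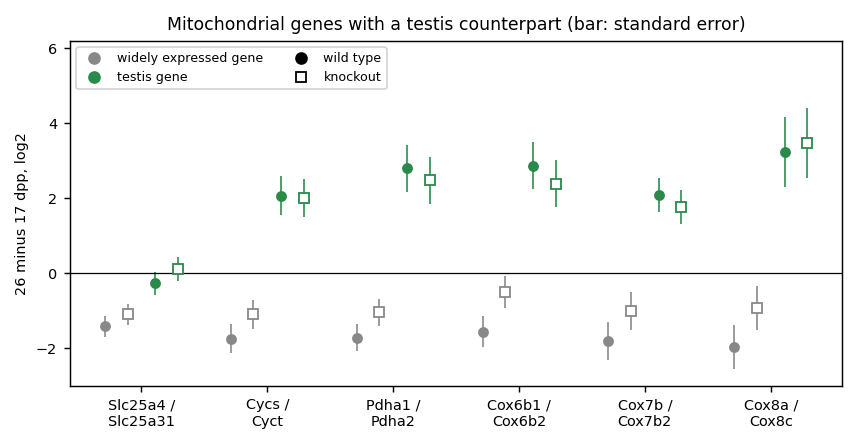
Change from 17 to 26 dpp (log2, with the standard error of the limma fit as bars) of 6 pairs of a widely expressed gene (grey) and its testis counterpart (green), in wild type (filled circles) and knockout (open squares). In wild type the grey points lie below 0 and the green ones above it, except Slc25a31 at −0.27.

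Carriers of the same family under other names were also counted. Mtch2, an outer membrane protein, rose by 1.95 in wild type (SE 0.34, limma adjusted p = 0.0125), and its relative Mtch1 fell by 1.87 (SE 0.37, limma adjusted p = 0.0154). The uncoupling proteins Ucp2 and Ucp3 fell by 1.11 and 1.42. Ucp1 was well above background only in knockout at 26 dpp (−4.70 and −3.71), so it has no wild type change to give. It passed the filter only through that group, and its difference from wild type there did not pass (limma adjusted p = 0.533). Of 19 other mitochondrial transport genes 3 rose and 8 fell. Those that rose were the calcium uniporter gene Mcu, at least 7.24-fold (limma adjusted p = 0.0361), the pyruvate carrier subunit Mpc2 by 1.56 and the outer membrane channel Vdac2 by 1.48. Knockout replicate 2 at 26 dpp read −7.35 for Mcu and replicate 1 read −2.92. As with Slc25a41, that array was at the level of 17 dpp, where wild type averaged −7.52.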

How the data were processed

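Per the labels' protocols, TRIZOL RNA was reverse transcribed from oligo-dT and labelled as Cy3 cRNA. Spots were read with Agilent Feature Extraction of the version 11.5.1.1 that the file headers name. Per array the authors deposited processed, mean and background signals, which are linear intensity values. The authors' deposited table of values is on a log2 scale; against the same arrays its columns correlated at 0.9999 with the processed signal and lay near it minus the 75th percentile, so neither scale nor centring stays unknown and 1 colour has no direction. Its column medians were −3.69, −3.69, −3.67, −3.63, −3.59, −3.64, −3.62 and −3.84 (wild type then knockout at 17 dpp, then at 26 dpp). Other deposited columns hold flags.

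From these, outlier spots (103 to 200 of 59305 non-control spots per array) were left out, spots of a probe were averaged, and the log2 ratio of the processed signal to the array's 75th percentile was taken. Probes that both arrays of some group showed well above background were kept (37807), and a gene was represented by its brightest kept probe (26584 genes). The model of limma 3.58.1 (R 4.3.3, with data.table, version 1.17.8) had 1 mean per group over 8 arrays, with 4 residual and 2.03 prior degrees of freedom, two-sided tests and Benjamini-Hochberg adjustment over all 26584 genes. Where all arrays of a group lacked a signal well above background, a lower bound of the fold is given. It sets the mean of the bright group against a floor in the dim one. The floor is each array's lowest signal well above background, or the probe's signal if that is higher. The p-value beside a bound comes from the fit to the signals as read and does not test the bound. The script was tested on simulated data.

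All arrays shared 1 slide and 1 scan. Batches of dissection, RNA extraction or labelling are not known here, so none could be tested. The number of arrays limits the precision. The deviations of same-numbered replicates correlated at −0.405 to 0.114 between groups. With so few arrays per group, these values cannot decide whether same-numbered replicates were paired, and the labels do not say. Genes given with every array are the testis forms, their closest relatives, the 8 members that passed with the largest change per direction and age comparison, the 3 smallest p-values per knockout comparison and the X-linked members. The members, lists and motifs were chosen with earlier results of these data known. Alternatives covered background correction, normalization, the authors' table, the filter, the variance model, array weights, the arrays fitted, a replicate block, probe summaries and each array left out. Probe positions are mm9, as deposited. Amino acid sequences were not used here, and 1 member is counted but its values are not reported here.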

Additional observations from a re-analysis of the deposited data

Results flagged for a closer look

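For Slc25a39 and Slc25a40 both knockout arrays lay beyond both wild type arrays at each age, on opposite sides at the 2 ages, which singled them out. The gaps between the nearest arrays were narrow. For Slc25a40 at 26 dpp the nearest array of either genotype read −1.39, a tie at this rounding. At 17 dpp its gap ran from −0.44 (knockout) to −0.40 (wild type). For Slc25a39 the gap ran from −0.91 (knockout) to −0.95 (wild type) at 17 dpp. At 26 dpp it ran from 1.39 (knockout) to 1.43 (wild type). How many of all genes show such a pattern was not counted. The difference between the ages was tested for each gene and did not pass (limma adjusted p = 0.78 each). Slc25a39, the glutathione carrier, was 0.42 higher in knockout at 17 dpp and 0.99 lower at 26 dpp (difference −1.41). Slc25a40 differed by −0.10 and then by 0.72 (difference 0.82). For both the value at 26 dpp rests mainly on knockout replicate 2, the array that stood apart.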

How the results depend on the processing

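Counts of passing members in wild type (24, 7 higher and 17 lower) were 38 (11 and 27) with array weights, 37 (11 and 26) with only the compared arrays fitted and 13 (4 and 9) with the replicate block, where 74.6%, 70.3% and 33.1% of all genes passed. In knockout (5, 2 and 3) they were 1 (1 and 0) with array weights, 0 (0 and 0, with 5 at an unadjusted p under 0.05 in limma) with only the compared arrays and 3 with the replicate block, 1 of them lower (0.233%, 0% and 3.56% of all genes). Requiring probes above background on all arrays left 0 higher members in knockout, since dim genes were not tested, and a variance trend gave 5 lower ones. No other cause was tested. The other planned settings kept each count within 1.5 times, but single calls were lost: in wild type Slc25a23 and Slc25a43 under normexp or a variance trend, Slc25a15 under normexp with quantile normalization, and Slc25a22, Slc25a23 and Slc25a41 without the filter. In knockout Slc25a4 was lost on the authors' values, without the filter and with every probe as a row, and Slc25a15 under normexp. Leaving out 1 array at a time, counts ran from 0 to 37 in wild type (higher 0 to 11, lower 0 to 26), from 0 to 30 in knockout (higher 0 to 7, lower 0 to 23), stayed at 0 for knockout against wild type at 17 dpp, and ran from 0 to 28 at 26 dpp, 0 to 13 averaged and 0 to 22 for the difference between ages. Signs turned with the mean of probes for Slc25a37 (0.51) and Slc25a25 (0.11) in wild type. Leaving out 1 array at a time, signs turned for Slc25a25 in wild type (−0.16 to 0.10) and in knockout (−0.09 to 0.41), for Slc25a31 in knockout (−0.22 to 0.44), and for Slc25a41 in knockout (−0.40 to 4.47) and against wild type at 26 dpp (−4.80 to 0.08). Normexp with quantile normalization moved the median of all genes in wild type from −0.45 to −0.28. Dim members (Slc25a54 and Slc25a43 at 17 dpp, Slc25a15 and Slc25a23 at 26 dpp) have only bounds there.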
